A study of Mus musculus with 198 samples.

Results

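Inhibitory interneurons are the cortical neurons that release GABA, and a well-known set of genes marks them: the enzymes and transporter of GABA signalling in every type, and peptides, calcium-binding proteins and transcription factors in the separate types. DNA methylation was compared over these genes in the cortex of mice lacking a copy of Dnmt3a (hKO, labelled heterozygous KO) and of wild-type mice (WT). The list held 38 genes, chosen by name. Of these, 35 were measured in CA and in CG context in all 8 libraries, among 21302 genes so measured for CA and 21060 for CG, of 34193 genes listed. Ndnf was found under its older symbol A930038C07Rik, and Sst, Cort and Crh were listed with no value in any library. They are not analysed here, so somatostatin interneurons are represented by other genes.

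Bisulfite sequencing was done on whole cortex of C57BL/6J mice at 8 weeks of age, in 4 hKO and 4 WT animals of a series of 198 samples. In each genotype, replicates 1 and 2 were males and replicates 3 and 4 females, and values are given in that order. The labels describe the tissue as coming from littermates and the coverage as 6.4 to 7.8-fold. No counts accompanied the fractions, so the depth behind a single gene's value is unknown. The protocol text of the female libraries names a further instrument, so sex and instrument cannot be told apart. The allele, and how the loss was made, are not given in the labels. The other samples of the series were not used here, save for the CC and lambda levels below. The methylation of Dnmt3a itself does not check the genotype labels. Dnmt3a mCA was 0.794, 0.715, 0.881 and 0.655% in hKO and 1.14, 1.04, 1.52 and 1.30% in WT.

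Dnmt3a adds methyl groups to DNA that carried none, in CG and, in neurons after birth, also in CA context. In mature neurons CA methylation (mCA) builds up over gene bodies. A gene is usually low in mCA in the neuron types that use it and higher in those that do not. Interneurons are a minority of cortical cells, so whole cortex mixes their methylation with that of excitatory neurons and glia. Fewer cells of a type and less methylation per cell cannot be told apart in such samples.

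The promoters of the GABA genes are shown, with that of Vip as an example of a subtype gene. Each is the 250 bases upstream of the RefSeq start in GRCm38.p6, 5′ to 3′, with each CG in capitals. They lie at chr2:158610508-158610757, chr2:70561879-70562128, chr2:22622077-22622326 and chr10:5638968-5639217, all on the plus strand.
Slc32a1: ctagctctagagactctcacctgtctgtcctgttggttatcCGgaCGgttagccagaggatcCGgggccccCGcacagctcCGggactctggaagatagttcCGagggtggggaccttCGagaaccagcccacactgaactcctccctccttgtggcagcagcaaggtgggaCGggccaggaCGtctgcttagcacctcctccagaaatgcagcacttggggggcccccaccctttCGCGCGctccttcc
Gad1: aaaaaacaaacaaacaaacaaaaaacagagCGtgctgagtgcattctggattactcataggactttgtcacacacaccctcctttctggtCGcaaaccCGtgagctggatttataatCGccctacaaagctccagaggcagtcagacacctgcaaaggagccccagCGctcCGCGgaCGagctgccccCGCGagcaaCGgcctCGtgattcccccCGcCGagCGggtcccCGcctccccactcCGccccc
Gad2: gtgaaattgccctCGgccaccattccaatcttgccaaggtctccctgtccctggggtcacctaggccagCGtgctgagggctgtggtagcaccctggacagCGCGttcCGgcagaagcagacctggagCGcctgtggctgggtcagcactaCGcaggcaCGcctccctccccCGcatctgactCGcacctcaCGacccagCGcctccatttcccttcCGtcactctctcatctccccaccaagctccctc
Vip: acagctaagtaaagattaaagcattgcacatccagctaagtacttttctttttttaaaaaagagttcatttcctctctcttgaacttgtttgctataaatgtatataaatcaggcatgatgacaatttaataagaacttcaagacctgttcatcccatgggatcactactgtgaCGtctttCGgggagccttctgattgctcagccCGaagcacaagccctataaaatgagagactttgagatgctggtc
The Slc32a1, Gad1 and Gad2 windows held 12, 17 and 13 CG sites, and that of Vip held 3. Vip does not stand for the subtype genes, whose windows ran from 1 site, as in Nr2f2, to 41 in a window of Satb1. The window of Reln held 37. Of all 32851 windows, 33.5% held at least as many as Slc32a1 and 71.0% at least as many as Vip. The median was 11.5 over 52 windows of 30 interneuron genes and 6 over all windows. Methylation was given per gene, over an interval that is not given in the sources used here, and not for these windows. The CG count of a window did not order the genes by mCG: the WT mean was 2.07% in Slc32a1 with 12 sites, 41.5% in Gad1 with 17 and 73.2% in Gad2 with 13.

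The mCA of the interneuron genes was lower in hKO than in WT cortex for nearly the whole list, from GABA synthesis to the transcription factors of single types. By limma on the percentages, with Benjamini-Hochberg (BH) adjustment over all genes and a threshold of 0.05, 32 of 35 were lower and none was higher. The same test called 72.1% of all genes lower and 0.0329% higher, with a median difference of -0.907 points over all genes. With each library's median subtracted, 21 of the 32 kept the call and Slc32a1 and Nxph2 were called higher, against 24.8% of all genes lower and 30.6% higher. This takes the same points from every gene. Where the fall grows with the level, genes of high mCA then come out lower and genes near 0 higher. In WT 31 of the 35 lay above the median gene, so these calls cannot be read apart from level. With each library divided by its mean none was called. Among all genes whose mean over the 8 libraries was at least 2%, 92.5% were called lower, and 27 of the 29 interneuron genes of that level were. All 35 had a lower mean in hKO, as had 97.1% of all genes. In 30 of 35 every hKO value lay below every WT value, against 64.6% of all genes.

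The median interneuron gene had 1.90% mCA in hKO and 3.33% in WT, where the median over all genes was 1.15% in hKO and 2.07% in WT. In WT 31 of the 35 lay above the median gene. A high level was not particular to this list. The marker lists of other cortical cell types, read below, had WT medians from 2.64% for microglia to 4.24% for astrocytes. The level kept in hKO was 57.8% of WT at the median, with an interquartile range of 55.2 to 59.3%. Over all genes it was 56.6%, with an interquartile range of 53.1 to 61.8%. The mean CC methylation of each genotype, measured in 3 animals each, was also subtracted as background. This used 34 interneuron genes and 20543 genes in all, those at least 0.1 points above CC in WT. The level kept was 53.1% at the median of the interneuron genes and 48.8% over all. Taking the same points from every gene lowers the share most where mCA is low, and these medians are not matched for level. Methylation of lambda DNA in the same animals, not subtracted, averaged 0.358% in hKO and 0.519% in WT. Without subtraction the share kept was between 50 and 62% in 27 of 35 genes. A gene's fall in points went with its WT level (Pearson's r = -0.94 over 35 genes that share the same libraries, a description only). The WT level is part of the fall, so a negative r is partly built in. Pearson's r of the WT level with the share kept was 0.09. Taken per hKO animal, the median share kept was 52.9, 54.7, 64.1 and 56.5% of the WT mean. That mean is over all 4 WT animals, so a level shared by an hKO and a WT animal is not taken out. The median gene had 1.96% in hKO replicate 3 and 3.85% in WT replicate 3, the highest of each genotype.

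**Figure D1:**
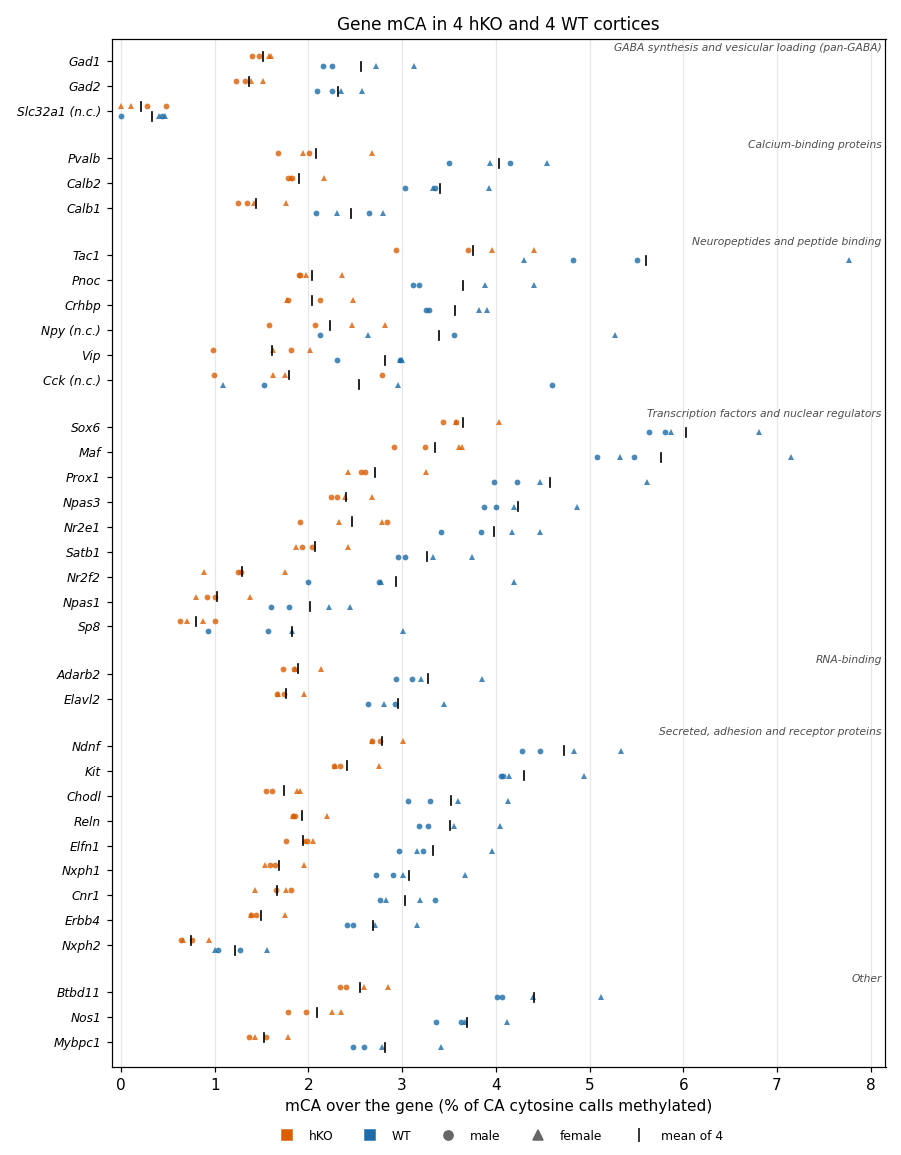
mCA over each of the 35 interneuron genes, in percent, grouped by role; points are single animals (hKO above WT, circles male, triangles female), black bars are means of 4, and "n.c." marks the 3 genes not called by limma. The hKO points lie left of the WT points without overlap in 30 genes, against 64.6% of all genes. Slc32a1 sits near 0 in both genotypes.

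Of the genes of GABA synthesis and vesicle loading 2 of 3 were called lower. Gad1 and Gad2 encode the glutamate decarboxylases that make GABA. Gad1 had mCA of 1.47, 1.40, 1.58 and 1.60% in the hKO cortices, against 2.15, 2.25, 3.13 and 2.72% in the WT cortices. Gad2 had mCA of 1.32, 1.23, 1.51 and 1.38% in the hKO cortices, against 2.09, 2.25, 2.57 and 2.35% in the WT cortices. For both enzymes the highest hKO animal lay below the lowest WT animal. The difference was -1.05 points (SE 0.230, limma BH-adjusted p = 0.00293) for Gad1 and -0.957 points (SE 0.161, limma BH-adjusted p = 0.000881) for Gad2. Slc32a1 encodes the transporter that loads GABA into vesicles. Slc32a1 had mCA of 0.273, 0.482, 0.107 and 0% in the hKO cortices, against 0, 0.436, 0.469 and 0.408% in the WT cortices. An animal of each genotype was at 0, the groups overlapped, and the difference of -0.113 points (SE 0.145, limma BH-adjusted p = 0.489) was not called. The WT mean of 0.328% was below the CC methylation of the same animals, which averaged 0.322% in 3 hKO and 0.354% in 3 WT cortices (all but replicate 3) sequenced at low depth and stands for the level of sites with little methylation. A change in mCA at Slc32a1 was thus not detectable in these data.

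At the median, subtype genes had higher mCA than the pan-GABA genes in both genotypes. The median of 32 subtype genes was 1.94% in hKO and 3.40% in WT, and in WT 29 of them lay above Gad2. Of the 32 subtype genes 30 were called lower, against Gad1 and Gad2 of the 3 pan-GABA genes. The pan-GABA gene not called was Slc32a1, whose WT mean was below the CC level. Over all genes 72.1% were called lower, and 92.5% of those with a mean of at least 2%. The counts by role and list below stand beside these same shares. Genes without overlap between the genotypes stand beside 64.6% of all genes. The level kept was 57.2% of WT at the median over subtype genes and 59.1% over pan-GABA genes. Genes of the Pvalb and Sst types, born in the medial ganglionic eminence, were called lower in 12 of 12, and the median kept was 57.5%. Genes of the Vip, Reln and Cck types, born in the caudal eminence, were called lower in 14 of 15, with a median kept of 56.7%. No test compared these lists.

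Calcium-binding proteins were lower in 3 of 3. Pvalb encodes parvalbumin, the calcium buffer of fast-spiking interneurons. Pvalb had mCA of 1.68, 2.01, 1.95 and 2.68% in the hKO cortices, against 4.15, 3.50, 3.93 and 4.55% in the WT cortices. The highest hKO animal lay clearly below the lowest WT animal. The difference was -1.95 points (SE 0.302, limma BH-adjusted p = 0.000721), and 51.6% of the WT level was kept. Calb2 encodes calretinin. Calb2 had mCA of 1.78, 1.83, 2.17 and 1.82% in the hKO cortices, against 3.03, 3.35, 3.93 and 3.33% in the WT cortices. The groups did not overlap, at -1.51 points (SE 0.232, limma BH-adjusted p = 0.000703). Calb1, calbindin, averaged 1.44 ± 0.220% in hKO and 2.46 ± 0.324% in WT (SD, n = 4 each), a difference of -1.01 points (SE 0.206, limma BH-adjusted p = 0.00200).

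Of 6 peptide genes 4 were called lower, and 2 of the 3 members not called in mCA were peptides. Vip encodes vasoactive intestinal peptide. Vip had mCA of 0.982, 1.82, 1.62 and 2.02% in the hKO cortices, against 2.30, 2.98, 2.97 and 3% in the WT cortices. Here hKO replicate 1 and WT replicate 1 were the low animals of their genotype, and the groups did not overlap. The difference was -1.20 points (SE 0.267, limma BH-adjusted p = 0.00310). Npy encodes neuropeptide Y. Npy had mCA of 1.58, 2.07, 2.47 and 2.81% in the hKO cortices, against 2.12, 3.55, 5.27 and 2.64% in the WT cortices. WT animals spanned most of the range and overlapped the hKO animals, and the difference of -1.16 points (SE 0.614, limma BH-adjusted p = 0.112) was not called. Without WT replicate 1 it was -1.59 points and passed, at a limma BH-adjusted p of 0.0359, and without WT replicate 3 it was -0.537 points (limma BH-adjusted p = 0.275). Cck encodes cholecystokinin, which many excitatory neurons also make. Cck had mCA of 0.990, 2.79, 1.75 and 1.62% in the hKO cortices, against 4.59, 1.52, 2.96 and 1.09% in the WT cortices. The values scattered in both genotypes and overlapped, with 2 WT animals above every hKO animal and 1 hKO animal below every WT animal, and the difference of -0.753 points (SE 0.713, limma BH-adjusted p = 0.352) was not called. It was -0.0688 points without WT replicate 1 and -1.24 points without WT replicate 4.

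Tac1, the precursor of substance P, had the highest mCA of the peptides. Tac1 had mCA of 2.94, 3.71, 4.41 and 3.96% in the hKO cortices, against 5.50, 4.83, 7.77 and 4.30% in the WT cortices. WT replicate 4 lay below the highest hKO animal, so the groups overlapped. The difference was -1.85 points (SE 0.720, limma BH-adjusted p = 0.0419). This call was lost in each fit without hKO replicate 1, 2 or 4 or WT replicate 1 or 3, and without WT replicate 3 the difference was -1.12 points (limma BH-adjusted p = 0.053). Pnoc, the precursor of nociceptin, averaged 2.04 ± 0.214% in hKO and 3.65 ± 0.618% in WT, and Crhbp, which binds corticotropin-releasing hormone, 2.04 ± 0.332% in hKO and 3.57 ± 0.345% in WT (SD, n = 4 each). Both were called lower without overlap, at -1.61 points (SE 0.311, limma BH-adjusted p = 0.00156) for Pnoc and -1.53 points (SE 0.254, limma BH-adjusted p = 0.000839) for Crhbp.

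Transcription factors held both the highest and some of the lowest levels, and 9 of 9 were called lower. Sox6 and Maf act in the maturation of Pvalb and Sst interneurons. Sox6 had mCA of 3.57, 3.43, 4.04 and 3.57% in the hKO cortices, against 5.63, 5.80, 6.81 and 5.87% in the WT cortices. Maf had mCA of 2.91, 3.24, 3.60 and 3.64% in the hKO cortices, against 5.08, 5.48, 7.15 and 5.33% in the WT cortices. In WT they stood above 99.4% and 99.1% of all genes, and their falls in points were the largest of the list. The groups did not overlap in either, at -2.37 points (SE 0.391, limma BH-adjusted p = 0.000821) for Sox6 and -2.41 points (SE 0.489, limma BH-adjusted p = 0.00199) for Maf. Satb1, a chromatin organizer of the same lineage, averaged 2.07 ± 0.248% in hKO and 3.26 ± 0.358% in WT (SD, n = 4 each).

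Nr2f2 and Sp8 mark interneurons of caudal origin and kept the smallest shares of WT mCA, 44.1 and 43.9%. Nr2f2 had mCA of 1.28, 1.25, 1.75 and 0.887% in the hKO cortices, against 2.75, 1.99, 2.78 and 4.20% in the WT cortices. Sp8 had mCA of 1, 0.628, 0.709 and 0.873% in the hKO cortices, against 0.924, 1.57, 3.01 and 1.82% in the WT cortices. Nr2f2 did not overlap between genotypes, at -1.64 points (SE 0.418, limma BH-adjusted p = 0.00632). In Sp8 the lowest WT animal lay below the highest hKO animal, at -1.03 points (SE 0.372, limma BH-adjusted p = 0.0312). The Sp8 call was lost without hKO replicate 2, 3 or 4 and in males alone (-0.432 points, limma BH-adjusted p = 0.264, against -1.62 points in females alone), and without WT replicate 3 the difference was -0.635 points (limma BH-adjusted p = 0.0343). Prox1, which specifies caudal interneurons, averaged 2.71 ± 0.370% in hKO and 4.57 ± 0.724% in WT, and Nr2e1, an orphan nuclear receptor, 2.47 ± 0.436% in hKO and 3.98 ± 0.453% in WT (SD, n = 4 each). The bHLH-PAS factors averaged 1.03 ± 0.245% in hKO and 2.01 ± 0.389% in WT for Npas1 and 2.40 ± 0.192% in hKO and 4.23 ± 0.441% in WT for Npas3. All 4 were lower without overlap between animals.

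Secreted, adhesion and receptor genes were called lower in 9 of 9, all without overlap, where 64.6% of all genes had none. Reln encodes the extracellular glycoprotein reelin. Reln had mCA of 1.86, 1.83, 2.20 and 1.83% in the hKO cortices, against 3.18, 3.27, 4.04 and 3.55% in the WT cortices. In hKO replicate 3 was the high animal, and in WT it was again replicate 3. The difference was -1.58 points (SE 0.236, limma BH-adjusted p = 0.000692). Nxph2, a secreted ligand of neurexins, had the smallest called fall. Nxph2 had mCA of 0.644, 0.759, 0.938 and 0.658% in the hKO cortices, against 1.27, 1.04, 1.56 and 1.00% in the WT cortices. The highest hKO animal was just below the lowest WT animal, at -0.466 points (SE 0.155, limma BH-adjusted p = 0.0220). The Nxph2 call was lost without hKO replicate 1, 2 or 4. Its relative Nxph1 averaged 1.68 ± 0.189% in hKO and 3.08 ± 0.415% in WT (SD, n = 4 each).

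Ndnf, a secreted protein of layer 1 neurogliaform cells, averaged 2.78 ± 0.156% in hKO and 4.73 ± 0.466% in WT, and Kit, a receptor tyrosine kinase, 2.41 ± 0.232% in hKO and 4.30 ± 0.426% in WT. Chodl, a lectin-like membrane protein of long-range Sst cells, averaged 1.73 ± 0.183% in hKO and 3.52 ± 0.462% in WT, and kept 49.3% of the WT level. The neuregulin receptor Erbb4 averaged 1.49 ± 0.176% in hKO and 2.69 ± 0.338% in WT, the cannabinoid receptor Cnr1 1.67 ± 0.169% in hKO and 3.03 ± 0.283% in WT, and the synaptic organizer Elfn1 1.94 ± 0.125% in hKO and 3.33 ± 0.436% in WT. In each of these genes every hKO animal lay below every WT animal. Of the RNA-binding genes, Adarb2, an inactive relative of the RNA-editing enzymes, averaged 1.89 ± 0.170% in hKO and 3.27 ± 0.402% in WT, and the neuronal protein Elavl2 1.76 ± 0.136% in hKO and 2.95 ± 0.352% in WT. Among the remaining genes the nitric oxide synthase Nos1 averaged 2.09 ± 0.258% in hKO and 3.70 ± 0.315% in WT, Btbd11 2.55 ± 0.231% in hKO and 4.40 ± 0.510% in WT and Mybpc1 1.53 ± 0.182% in hKO and 2.82 ± 0.418% in WT. These are mean ± SD over 4 animals of each genotype. All of these were called lower, with limma BH-adjusted p between 0.000692 for Chodl and 0.00110 for Mybpc1.

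Single animals moved together over the list. Replicate 3 of hKO was the highest hKO animal in 24 of 35 genes, and replicate 3 of WT the highest WT animal in 29. These were also the animals with the highest mean mCA over all genes, 1.44% in hKO replicate 3 and 2.60% in WT replicate 3, where the others had 1.15 to 1.21% in hKO and 2.05 to 2.11% in WT. They share the title number 651. Their mean mCG over all genes was also the highest of each genotype, 76.2% in hKO and 78.9% in WT. Without WT replicate 3 the median share kept was 61.0%, and 31 genes were called lower. In males alone 29 genes were called lower and 0 higher, against 63.4% of all genes lower and 0.253% higher. In females alone 27 were called lower and 0 higher, against 36.8% of all genes lower and 0.127% higher. The calls lost were those of Nr2e1, Sp8 and Vip in males and of Calb1, Gad2, Nxph2, Tac1 and Vip in females. In males 34 of 35 genes had a lower mean in hKO, Slc32a1 being the exception, and in females all 35. By limma's interaction term, 0 of the 35 genes passed for a genotype difference that differed between the sexes, and 0 had an unadjusted p under 0.05. Over all genes 0.00939% passed after adjustment and 3.41% before it.

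**Figure D2:**
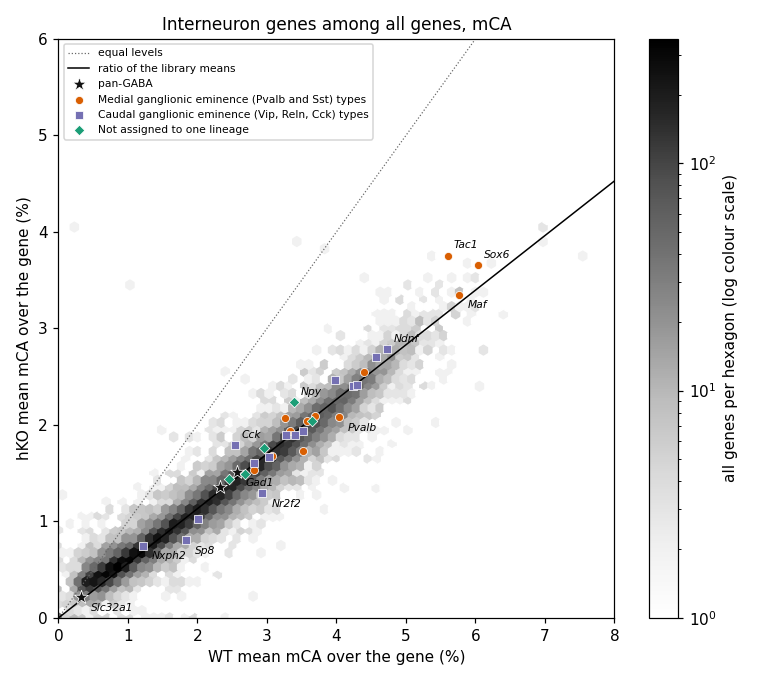
Mean mCA in hKO (vertical, %) against mean mCA in WT (horizontal, %) for all genes (grey hexagons, log colour) and the 35 interneuron genes by lineage; the dotted line is equality, the solid line the ratio of the library means, and genes outside the axes are not drawn. The interneuron genes follow the solid line from Slc32a1 at 0.328% to Sox6 at 6.03% in WT.

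Each library was then divided by its mean over all genes, to ask whether an interneuron gene fell more or less than its library did. On this scale limma called 0 of 35 (0% of all genes), and 0 in each alternative fit. At an unadjusted p under 0.05 it was 1 of 35, against 6.31% of all genes. That gene was Satb1, at 165% of the library mean in hKO and 148% in WT (unadjusted limma p = 0.0123), named after its value was seen. The share of the library mean was higher in hKO for 22 genes and lower for 13, where 10699 of all 21302 genes were lower. This split was not tested. The median difference was 2.89 points of the library mean, against -0.0530 over all genes. Tac1 stood at 300% of the library mean in hKO and 251% in WT, Nr2f2 at 102% in hKO and 134% in WT, and neither difference passed.

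CG methylation (mCG) of the interneuron genes was high in both genotypes for most of the list, and no member passed the test. The median gene had 72.8% mCG in hKO and 75.1% in WT, where all genes had 77.1% in hKO and 79.4% in WT. Limma called 0 of 35 after BH adjustment, in either direction, as it called 0% of all genes, and 0 of 35 in each alternative fit. At an unadjusted p under 0.05 there were 5 of 35, against 10.4% of all genes. The mean was lower in hKO for 31 of 35 genes, against 84% of all genes, and the median difference was -2.83 points, against -2.18 over all genes. Taken per hKO animal, that median was -3.03, -4.93, -0.485 and -3.03 points from the mean of all 4 WT animals. In replicate 3, the highest animal of each genotype, the median gene had 73.3% in hKO and 79.8% in WT. All 4 hKO values lay below all 4 WT values in 3 genes, Maf, Nr2e1 and Cnr1, against 4.94% of all genes.

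The largest mCG differences were in transcription factors and a peptide gene. Nr2e1 had mCG of 38.9, 33.9, 31.8 and 35.9% in the hKO cortices, against 45.6, 38.9, 43.4 and 50.3% in the WT cortices. The highest hKO animal lay just below the lowest WT animal, at -9.42 points (SE 3.04, limma BH-adjusted p = 0.476). Tac1 had mCG of 63.0, 64.7, 67.3 and 54.1% in the hKO cortices, against 74.9, 66.0, 75.6 and 67.9% in the WT cortices. Here hKO replicate 3 overlapped the WT range, at -8.81 points (SE 3.41, limma BH-adjusted p = 0.476). Maf had mCG of 71.1, 66.1, 72.9 and 69.3% in the hKO cortices, against 75.7, 74.2, 81.6 and 77.6% in the WT cortices. Its groups did not overlap, at -7.40 points (SE 2.23, limma BH-adjusted p = 0.476). The other members with an unadjusted p under 0.05 were Prox1, with 68.2 ± 2.06% in hKO and 74.7 ± 3.85% in WT, and Npas3, with 75.2 ± 1.71% in hKO and 79.4 ± 2.53% in WT (SD, n = 4 each). None of the 5 passed the adjustment. Relative to the library mean, again 0 of 35 passed, as 0% of all genes did, and 5 had an unadjusted p under 0.05, against 13.6% of all genes.

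Mean mCG was higher in hKO in 4 genes, none of them called. Slc32a1 had mCG of 1.84, 2.16, 2.70 and 4.83% in the hKO cortices, against 1.20, 3.13, 2.99 and 0.957% in the WT cortices. Calb1 had mCG of 73.5, 70.8, 73.3 and 74.4% in the hKO cortices, against 71.4, 71.4, 76.3 and 69.98% in the WT cortices. Chodl had mCG of 81.4, 77.5, 82.1 and 74.4% in the hKO cortices, against 73.6, 77.4, 84.3 and 77.7% in the WT cortices. The groups overlapped in all 3, at differences of 0.812, 0.726 and 0.614 points. The other was Nxph2, with 75.8 ± 2.48% in hKO and 75.6 ± 4.15% in WT (SD, n = 4 each). No member passed limma's interaction term for mCG between the sexes, adjusted or at an unadjusted p under 0.05. Over all genes 0% passed after adjustment and 3.07% before it.

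**Figure D3:**
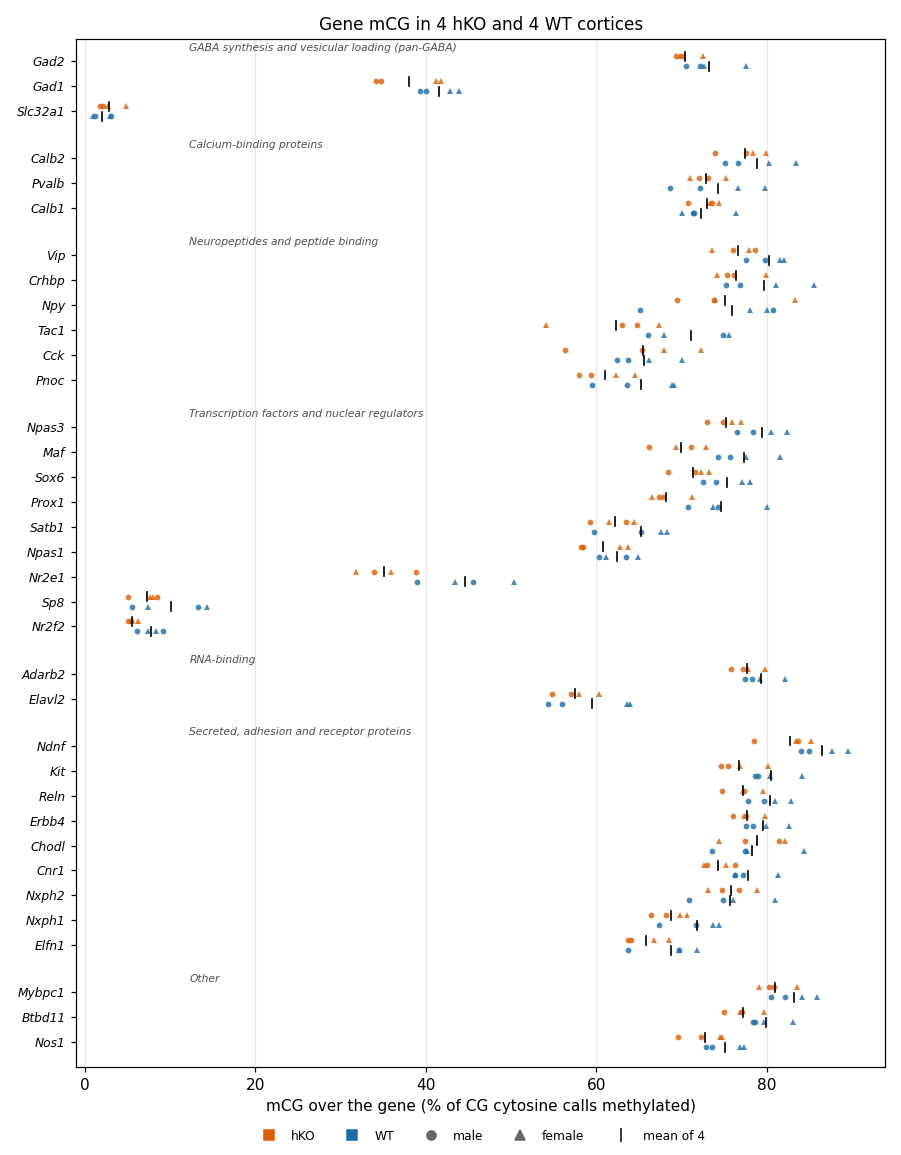
mCG over each of the 35 interneuron genes, in percent, grouped by role; points are single animals (hKO above WT, circles male, triangles female) and black bars are means of 4. Points of the genotypes overlap in 32 genes, and Slc32a1, Nr2f2, Sp8, Gad1 and Nr2e1 stand left of the rest.

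Levels of mCG set 5 genes apart from the other 30, whose WT means were 59.5 to 86.5%. Slc32a1 was lowest, at 2.88 ± 1.35% in hKO and 2.07 ± 1.15% in WT. Nr2f2 had mCG of 5.10, 5.42, 6.31 and 5.58% in the hKO cortices, against 9.25, 6.09, 8.39 and 7.41% in the WT cortices. Sp8 had mCG of 8.54, 5.14, 8.02 and 7.66% in the hKO cortices, against 13.3, 5.61, 14.3 and 7.42% in the WT cortices. In Nr2f2 every hKO value but that of replicate 3 lay below every WT value. In Sp8 only hKO replicate 2 lay below every WT value, and the other hKO values lay among those of WT. The groups overlapped in both genes, and neither was called. The pan-GABA genes spanned nearly the whole range. Gad1 had mCG of 34.7, 34.2, 41.1 and 41.8% in the hKO cortices, against 40.02, 39.3, 42.9 and 43.9% in the WT cortices. Gad2 had mCG of 69.3, 70.01, 72.5 and 69.8% in the hKO cortices, against 72.2, 70.5, 77.5 and 72.6% in the WT cortices. Both enzymes overlapped between genotypes, Gad1 at -3.56 points (SE 2.79, limma BH-adjusted p = 0.559) and Gad2 at -2.78 points (SE 2.04, limma BH-adjusted p = 0.538). At the other end of the list stood Ndnf, Mybpc1 and Kit. Ndnf had mCG of 83.6, 78.5, 85.1 and 83.4% in the hKO cortices, against 84.9, 84.0, 89.5 and 87.6% in the WT cortices. Mybpc1 had mCG of 80.3, 80.8, 83.5 and 79.0% in the hKO cortices, against 82.1, 80.5, 85.9 and 84.0% in the WT cortices. Kit had mCG of 75.4, 74.6, 80.1 and 76.8% in the hKO cortices, against 78.9, 78.6, 84.1 and 80.3% in the WT cortices. In all 3 genes replicate 3 was the highest animal of its genotype, and the groups overlapped.

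The classical subtype markers had WT mean mCG of 65.6% in Cck to 80.3% in Reln, and Vip and Reln alone of the 6 measured lay above the median of all genes. Pvalb had mCG of 72.1, 73.1, 75.2 and 70.9% in the hKO cortices, against 68.6, 72.2, 79.8 and 76.5% in the WT cortices. Vip had mCG of 76.0, 78.6, 77.9 and 73.6% in the hKO cortices, against 79.8, 77.5, 81.9 and 81.5% in the WT cortices. Reln had mCG of 77.3, 74.8, 79.5 and 77.1% in the hKO cortices, against 79.6, 77.8, 82.8 and 81.0% in the WT cortices. WT values reached higher than hKO values in these 3 genes, with overlap in each. Calb2 had mCG of 77.5, 73.9, 78.3 and 79.9% in the hKO cortices, against 75.03, 76.6, 83.3 and 80.2% in the WT cortices. Npy had mCG of 69.5, 73.8, 73.9 and 83.3% in the hKO cortices, against 65.1, 80.7, 80 and 78% in the WT cortices. Cck had mCG of 65.4, 56.3, 67.9 and 72.2% in the hKO cortices, against 63.7, 62.4, 66.2 and 70% in the WT cortices. The genotypes overlapped widely in Calb2, Npy and Cck, whose mean differences were -1.41, -0.834 and -0.104 points. None of the 6 was called.

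The 5 genes of lowest mCG were also the 5 densest in CG of the list. The authors' deposited methylation per length, divided by the mean fraction of the same 4 animals, gave ratios within 1% of each other between the genotypes in all 20991 genes compared and was read as the number of CG cytosines per base of the measured interval. It came to 13.7 CG cytosines per 100 bases in Slc32a1, 6.89 in Sp8 and 6.79 in Nr2f2, the 3 members above 6. Gad1 and Nr2e1 followed at 3.49 and 3.47. Kit came next at 3.33, with a WT mCG of 80.5%. The median was 2.02 over the members and 2.04 over all genes, and Gad2 had 1.12. Whether this density counts the cytosines of both strands is not given. It is thus not on the scale of the CG sites counted in the promoter windows. Across the 35 members the rank correlation of CG density with WT mCG was -0.46, and -0.15 across 21047 genes, as descriptions over genes of the same libraries. Density in CA ran from 12.8 per 100 bases in Sp8 to 16.6 in Cck, with 14.9 at the median member and 15.3 over all genes. WT mCG and WT mCA had a rank correlation of 0.39 over the 35 members and 0.03 over all genes.

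**Figure D4:**
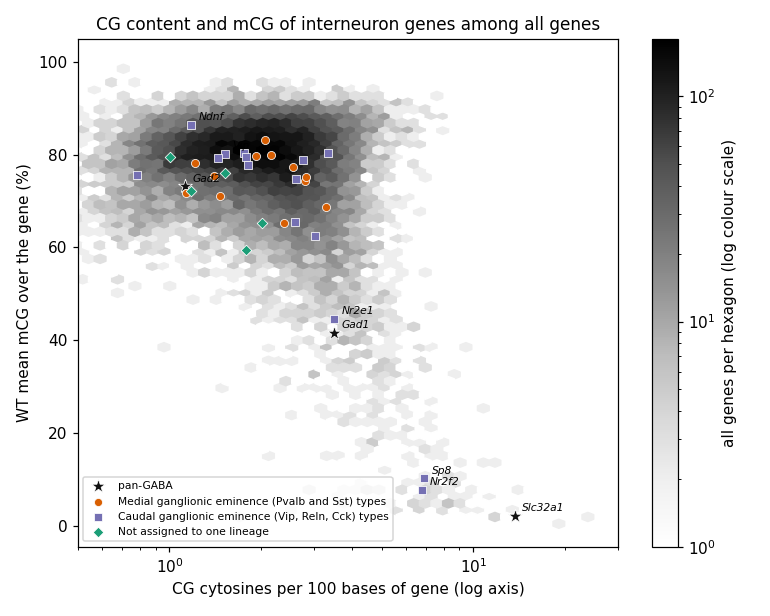
WT mean mCG (vertical, %) against CG cytosines per 100 bases of gene (horizontal, log axis) for all genes (grey hexagons, log colour) and the interneuron genes by lineage; genes outside the horizontal range are not drawn. Slc32a1, Sp8 and Nr2f2 lie at the lower right, at 13.7, 6.89 and 6.79 CG cytosines per 100 bases and WT mCG of 2.07, 10.2 and 7.78%.

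Other genes of the GABA pathway and of interneuron development were read from lists given by name. Their counts stand beside 72.1% of all genes called lower in mCA, and 92.5% at a mean of at least 2%. GABA uptake and breakdown genes were called lower in mCA in 7 of 7, with a median of 55.5% kept. Abat, the GABA transaminase, averaged 2.34% in hKO and 4.07% in WT. Of 21 further subtype genes 20 were called lower, with 57.6% kept. Interneuron development genes were called lower in 5 of 12, and their WT median was 1.74%. The homeobox factors Dlx1, Dlx2, Dlx5, Dlx6 and Nkx2-1 were among the 7 not called. Dlx5 and Nkx2-1 averaged 0.348% and 0.407% mCA in WT, beside a WT CC level of 0.354%. At such levels the lack of a call does not show that mCA stayed the same. Dlx1 averaged 0.469% mCA in hKO and 1.02% in WT, with mCG of 7.49% in hKO and 8.75% in WT. Lhx6, which specifies medial interneurons, was called, at 1.69% mCA in hKO and 2.63% in WT (limma BH-adjusted p = 0.00535).

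Marker lists of the other cortical cell types were read the same way. Their counts stand beside the same 72.1% of all genes called lower, and 92.5% at a mean of at least 2%. The level of mCA kept was 59.9% of WT at the median over 19 excitatory neuron genes, of which 13 were called lower, and 55.2% over 14 astrocyte genes, of which 13 were. Over 14 oligodendrocyte, 10 microglia and 9 endothelial genes it was 55.4, 53.5 and 54.2%, with 13, 7 and 9 called lower. Mean mCA was higher in hKO in Neurod6, Neurod2 and Olig2 of these lists, none of them called. Neurod2 and Olig2 averaged only 0.258% and 0.240% in WT. The difference of the interneuron list from these lists was not tested, and no cell counts or expression values stood beside the methylation.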

How the data were processed

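Values per gene came from whole-genome bisulfite libraries of 8-week cortex (4 hKO, 4 WT), grouped by the labels. The deposited values are fractions of methylated CA or CG calls per gene in each library, printed here as percent. Genotype averages of methylation per length, also deposited by the authors, served only to derive the density of cytosines. Reads were processed on mm9 with bedtools and BS-Seeker2, per the submitters' processing notes. Versions, coverage filters and the gene interval are not given in the sources used here.

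Genes with a value in all 8 libraries were tested on the percent scale, because no counts were given, with limma 3.58.1 (eBayes with trend) in R 4.3.3 and Benjamini-Hochberg adjustment over all genes. The fit was tested on simulated data. The members and gene lists were chosen with earlier results of these data known. Values of every animal are given for the pan-GABA genes, the classical subtype markers and the extremes in mCA difference, mCG level and mCG difference (3 each). Alternatives were a logit scale, library scaling and centring, a sex term, each sex alone, each animal left out, a looser gene filter, no trend, a replicate block and a threshold of 0.01. Low-depth libraries of the same animals gave CC and lambda levels as fractions, and the libraries of an animal with several were averaged. Gene symbols and promoters are from RefSeq. Each library is a separate animal in the labels.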

Additional observations from a re-analysis of the deposited data

Results flagged for a closer look

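In 140 groups of 4 animals (35 genes, 2 contexts and 2 genotypes), 8 held an animal set apart from its 3 companions by a gap beyond Dixon's 95% limit, where chance gives about 1 in 20, or 7. All 8 were in mCA. In hKO, replicate 3 was the high animal in 5 genes: Reln at 2.20% (others 1.83 to 1.86%), Erbb4 at 1.75% (1.38 to 1.44%), Calb2 at 2.17% (1.78 to 1.83%), Kit at 2.76% (2.27 to 2.34%) and Pnoc at 2.35% (1.90 to 1.98%). In WT, replicate 3 was high in Kit at 4.94% (4.05 to 4.14%). WT replicate 1 was low in Vip at 2.30% (2.97 to 3.00%) and in Slc32a1 at 0% (0.408 to 0.469%). Replicate 3 was also the animal with the highest mean mCA over all genes in each genotype, as given above, and its part in these values was not tested. The replicate 3 animals of both genotypes share a title number.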

How the results depend on the processing

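The count of 32 interneuron genes lower in mCA was 29 to 32 with each animal left out, 27 in females alone, 29 in males alone, and 31 or 32 with a sex term, a replicate block, the logit scale, no trend or the looser gene filter. It was 29 at a threshold of 0.01. Both scalings removed part or all of it. With each library's median subtracted 21 were lower and 2 higher. Subtraction takes the same points from every gene, so it does not take out a fall that grows with the level. With each library divided by its mean 0 passed. Of the 32 calls, 25 held in every setting without such scaling. The pan-GABA count of 2 became 0 under both scalings (1 higher with medians subtracted) and 1 in females alone, and stayed at 2 with each animal left out. The median share kept was 55.3 to 61.0% with each animal left out, and the median mCG difference -3.96 to -1.85 points. In mCG 0 genes passed under any setting, and the counts relative to the library mean and between the sexes were 0 throughout.

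Animals shared a title number in 3 pairs. Correlations of their deviations over all genes were 0.037 to 0.114 for mCA and 0.084 to 0.120 for mCG. The main fits did not take the numbers as pairs. Such a correlation cannot see a level shared by whole libraries. Mean mCG over all genes was 71.9, 76.2 and 74.1% in hKO replicates 2, 3 and 4. In WT replicates 2, 3 and 4 it was 74.0, 78.9 and 76.7%, in the same order. A shared level within pairs was not tested, and the unpaired fits count it as spread between animals. With the replicate block over those 6 animals, 31 genes were lower in mCA, Tac1 being the one not called (-1.60 points, limma BH-adjusted p = 0.0907), and 0 passed in mCG. In mCG each hKO animal of a pair correlated best with its own number, and in mCA hKO replicate 3 did not.

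Some differences changed sign, most of them small and not called. In mCA, with medians subtracted the differences in points were Slc32a1 0.798, Cck 0.158 and Nxph2 0.445, of which Slc32a1 and Nxph2 passed as higher. In percent of the library mean the mCA differences were Gad1 6.15, Gad2 3.87, Slc32a1 2.89, Vip 2.05, Npy 29.0, Cck 28.9, Maf 9.54, Sox6 19.4, Nxph2 4.92, Ndnf 8.73, Nr2e1 16.8, Tac1 49.7 and Calb1 3.75. In males alone the mCA difference was 0.160 points for Slc32a1, and under the block 0.197 for Cck. In mCG the differences with medians subtracted were Pvalb 0.825, Npy 1.45, Calb2 0.872, Cck 2.18, Mybpc1 0.0457 and Nr2f2 0.1004, and in percent of the library mean Pvalb 1.09, Npy 1.94, Calb2 1.29, Cck 2.42 and Mybpc1 0.330. They were Cck 2.00, Nxph2 -2.48 and Chodl -2.72 in females alone, Slc32a1 -0.166 and Pvalb 2.18 in males alone, Chodl -1.79 under the block and Cck 0.00324 in log-odds on the logit scale. With each animal left out they ran over both signs in mCG: Calb1 -0.0360 to 2.08, Calb2 -2.67 to 0.101, Cck -2.35 to 2.94, Chodl -0.939 to 2.64, Npy -4.44 to 1.04, Nxph2 -1.42 to 1.94 and Pvalb -3.35 to 0.375. The cause of these changes was not tested. With no read counts per gene the error of a single value is unknown, and Cck, Tac1 and Npy had the widest spread between WT animals in mCA.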
